A study of Mus musculus with 12 samples.

Results

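Endothelial adhesion molecules are the surface proteins by which blood vessel cells hold on to each other and to circulating leukocytes, and 10 of their genes were followed here in glomeruli of mice with Alport syndrome (AS). The genes were Vcam1, Icam1, Icam2, Sele, Selp, Pecam1, Cdh5, Esam, Emcn and Cd34, found by symbol among 27592 genes listed in the male tables and 26048 in the female tables, and all 10 were present in both. They were chosen on the measured difference between AS and wild-type (WT) glomeruli, so their differences between genotypes are given as a description. The count of members past the test across all genes is printed beside the share of all genes that passed, and supports nothing. The glomerulus is the filter of the kidney, a tuft of capillaries held by mesangial cells and wrapped by podocytes. AS is a disease of the type IV collagen of its basement membrane, and the mutated gene of this model, Col4a5, is X-linked.

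Glomeruli were isolated from each mouse, and polyA RNA of the whole isolate was sequenced, at 3.5 months of age according to the labels. For the male mice the supplement of the study gives another age than the labels. The 4 groups were male WT (C57BL/6J, n = 3), male AS (Col4a5-/- in the labels, of the strain B6.Cg-Col4a5tm1Yseg/J, n = 3), female WT (C57BL/6J) and female heterozygous AS (Col4a5+/- of the same strain, n = 3). Of the 3 female WT samples, replicate 3 holds the values of replicate 1, so female WT counts as n = 2 and the 12 samples give 11 distinct libraries. The mutation is germline, so every cell type carries it, and in heterozygous females X inactivation leaves a mixture of cells. In the female table headers the WT and the AS libraries carry different sequencing run names, so run and genotype cannot be told apart in females, and the male headers name none. Values are TMM-normalized counts, that is, reads per gene scaled by a trimmed mean of log ratios. They sum to between 14242206 and 23182937 per library in males and between 16941020 and 20152078 in females. Levels of males and females are not compared, since nothing states that their tables were scaled together.

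At rest, endothelial cells express Cdh5 (VE-cadherin), Pecam1 and Esam at their junctions, Icam2 on their surface, and the sialomucins Emcn and Cd34 on the side that faces the blood. When inflammatory signals reach them they add E-selectin (Sele) and P-selectin (Selp), on which leukocytes roll, and Icam1 and Vcam1, to which leukocyte integrins bind firmly. In the kidney Vcam1 is also known from injured tubule cells and from the parietal cells that line Bowman's capsule, and Selp is also a platelet gene.

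The start regions of the selectin and sialomucin genes are shown because in male AS glomeruli the selectins were lower and the sialomucins higher. Of the 10 members, 5 had an entry among the RefSeq promoters of GRCm38.p6 (Sele, Selp, Cd34, Emcn and Icam1), each reaching from 250 bases before the start to 50 after it. The windows below lie on the plus strand at chr1:164047984-164048283 (Sele), chr1:164115014-164115313 (Selp), chr1:194938571-194938870 (Cd34) and chr3:137340828-137341127 (Emcn). Capitals mark AGGAAG on either strand, a word that ETS factors can bind, and TGANTCA, the word of AP-1 factors.
Sele: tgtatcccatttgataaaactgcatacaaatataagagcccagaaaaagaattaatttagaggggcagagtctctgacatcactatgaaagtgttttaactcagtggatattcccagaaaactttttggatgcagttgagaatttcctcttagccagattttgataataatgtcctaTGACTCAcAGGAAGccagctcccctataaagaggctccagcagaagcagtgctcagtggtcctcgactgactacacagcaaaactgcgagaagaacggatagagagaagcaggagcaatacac
Selp: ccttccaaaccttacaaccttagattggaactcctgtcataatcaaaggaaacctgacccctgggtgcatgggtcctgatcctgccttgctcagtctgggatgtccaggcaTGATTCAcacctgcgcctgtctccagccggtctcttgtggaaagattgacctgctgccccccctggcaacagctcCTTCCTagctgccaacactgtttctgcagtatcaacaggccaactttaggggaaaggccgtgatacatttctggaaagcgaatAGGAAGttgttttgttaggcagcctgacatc
Cd34: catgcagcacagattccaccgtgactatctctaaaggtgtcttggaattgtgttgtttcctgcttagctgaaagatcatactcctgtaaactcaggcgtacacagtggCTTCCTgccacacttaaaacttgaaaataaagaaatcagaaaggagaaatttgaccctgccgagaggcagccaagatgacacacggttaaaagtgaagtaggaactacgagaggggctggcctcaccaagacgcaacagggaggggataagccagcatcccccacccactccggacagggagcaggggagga
Emcn: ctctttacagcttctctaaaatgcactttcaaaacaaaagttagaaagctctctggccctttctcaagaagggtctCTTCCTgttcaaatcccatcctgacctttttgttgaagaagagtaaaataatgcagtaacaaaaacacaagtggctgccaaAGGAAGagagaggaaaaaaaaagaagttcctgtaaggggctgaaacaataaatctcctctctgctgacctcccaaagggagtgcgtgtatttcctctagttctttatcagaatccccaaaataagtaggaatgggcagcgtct
AGGAAG was found in 4 of the 5 member promoters, all but that of Icam1, and in 35.4% of 32851 mouse promoters of the same length. TGANTCA was found in both selectin promoters, with its first base 73 bases before the start of Sele and 139 before that of Selp, and in 7.8% of all promoters. In Sele the 2 words are separated by a single base, and no words searched overlapped in these windows. TATAAA, the TATA box word, was found in the Sele and Icam1 windows and in 13.6% of all promoters. Its first base was 49 bases before the start of Sele, but in Icam1 it lay after the start, at base 14. AGATAA, which factors of the GATA family bind, was in none of the 5 and in 11.2% of all. The NF-kB consensus, searched as GGGRNNYYCC, was in none of the 5 and in 8.5% of all. In it R is A or G, Y is C or T and N is any base, and looser variants were not searched. All words were searched on both strands. A match is a description of the letters and not a site, and a window without one says only that these letters are not in it.

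The mean of Col4a5 in male WT was 2.28 times that in male AS (AS 657 ± 78.8 and WT 1497 ± 328, mean ± SD, n = 3 each). In limma, a linear model fitted across all genes on log2 values with Benjamini-Hochberg adjustment, its log2 difference was -1.15 ± 0.18 (SE, adjusted p = 0.00609). In heterozygous females it was 1242 ± 76.5 (n = 3) against 2040 ± 408 (n = 2), a log2 difference of -0.70 ± 0.15 (adjusted p = 0.0684), so the female difference did not pass. The tissue label was checked on markers. Counts of markers past the test stand beside 16.6% of all genes as higher and 18.9% as lower in males. In females 1.41% of all genes passed, so few genes of any kind did. All 16 endothelial reference genes such as Kdr, Tek and Ehd3, and all 10 podocyte markers such as Nphs1, were measured in every library, and so were markers of kidney tubules. The summed value of 14 proximal tubule markers was 250711 to 417659 in male WT and 38551 to 94583 in male AS libraries, and all 14 passed as lower in male AS. In females those sums overlapped (132307 to 268889 in WT and 146313 to 191493 in AS). The sum of 8 distal tubule and collecting duct markers was 54927 to 92547 in male WT and 22232 to 73303 in male AS, with 4 of 8 past the test as lower. In females it was 18124 and 29129 in WT and 56113 to 78520 in AS, with Slc12a3 (log2 difference 2.02, adjusted p = 0.0331) and Umod (1.61, adjusted p = 0.0446, both limma) higher, calls that each held in 1 of the 5 fits that left out a library. The podocyte markers summed to 89694 to 140405 in male WT and 193094 to 250430 in male AS, with 7 of 10 past the test as higher (median log2 difference 1.008), and to 172471 to 225033 in female WT and 146640 to 181145 in female AS, with none of the 10 past the test in limma and 2 log2 differences above 0. The summed endothelial reference was 59323 to 110332 in male WT and 123816 to 171848 in male AS, with 9 of 16 genes past the test as higher, and in females 128070 to 189373 in WT and 109181 to 137803 in AS, with none past the test in limma and 1 of 16 log2 differences above 0. In RNA of whole glomeruli, fewer cells of a type and less RNA per cell cannot be told apart.

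Vcam1, the ligand of the integrin VLA-4, was the member with the largest difference, and it was lower in AS in both sexes. The male WT libraries had values of 706, 976 and 493, and the male AS libraries had 134, 171 and 177. The female WT libraries had 1052 and 1233, and the heterozygous AS libraries had 199, 162 and 407. No AS library reached any WT library of its sex, and female AS replicate 3 stood at more than 2 times the level of the other female AS libraries. The WT mean was 4.51 times the AS mean in males and 4.46 times in females. On the log2 scale with a pseudocount of 1 CPM (17.5 units in males and 17.8 in females) the differences were -2.02 ± 0.24 and -2.18 ± 0.34 (SE). Leaving out each library in turn gave -2.26 to -1.78 in males and -2.55 to -1.93 in females. Vcam1 lies on chromosome 3 of GRCm38 from 116109949 to 116129688, on the minus strand.

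Icam1, the ligand of the integrin LFA-1, was lower in male AS glomeruli and overlapped between the genotypes in females. Its value was 1044, 805 and 766 in male WT and 475, 714 and 532 in male AS libraries, and the groups did not overlap. The male log2 difference was -0.60 ± 0.19 (SE). It was -0.19 ± 0.22 when every library was scaled to an equal column total, a scaling that moves the median of all genes by 0.36 in males. In females Icam1 was 718 and 458 in WT and 730, 557 and 490 in AS libraries, which overlap, with a log2 difference of 0.03 ± 0.23 (SE). Icam2, which binds the same integrin but is expressed without stimulation, had the opposite direction in males. It was 569, 932 and 417 in male WT and 877, 1365 and 1130 in male AS libraries, with WT replicate 2 above AS replicate 1. The male log2 difference was 0.85 ± 0.29 (SE). In females it was 1338 and 1182 in WT and 983, 913 and 1004 in AS, with a log2 difference of -0.38 ± 0.11 (SE) and no overlap.

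Both selectins were lower in male AS glomeruli, whereas in heterozygous females Sele was higher and Selp overlapped. Sele was 472, 167 and 330 in male WT libraries and 104, 126 and 111 in male AS libraries, with a log2 difference of -1.27 ± 0.32 (SE). In females Sele was 59.4 and 32.8 in WT and 95.1, 97.2 and 103 in AS libraries, with a log2 difference of 0.90 ± 0.20 (SE). The groups of each sex did not overlap, all male AS libraries being below and all female AS libraries above their controls. Selp was 20.9, 8.08 and 18.2 in male WT and 4.65, 4.76 and 2.61 in male AS libraries, values made of few reads. Selp was 5.03 and 1.13 in female WT and 4.17, 3.63 and 3.86 in female AS libraries. It stayed under the filter of 0.5 CPM in at least 3 libraries in both sexes and was therefore not fitted. The male WT mean of Selp was 3.93 times the AS mean. In male WT replicate 2 both selectins and the share of Icam1 relative to endothelial genes were lowest among the male WT libraries.

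**Figure D1:**
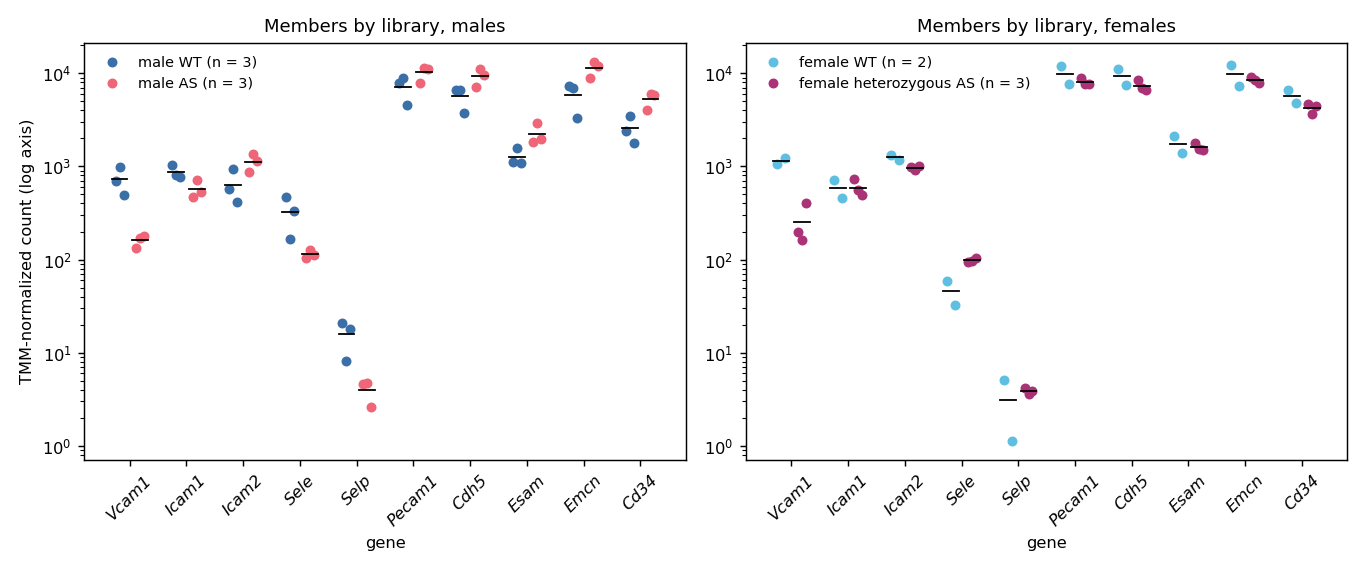
TMM-normalized counts (log axis) of the 10 genes in each library, males left and females right, with 1 point per library and a line at the group mean. Vcam1 of AS libraries sits at 134 to 177 in males and 162 to 407 in females, below every WT library, while Sele is below WT in male AS and above WT in female AS.

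The junction genes had higher means in male AS glomeruli, and overlapped between genotypes in females. Pecam1, a homophilic adhesion molecule of endothelial junctions and platelets, was 7855, 8987 and 4603 in male WT and 7904, 11490 and 11195 in male AS libraries, which overlap. Its male log2 difference was 0.55 ± 0.27 (SE), and its female value was -0.25 ± 0.21. Cdh5, the cadherin of endothelial adherens junctions, was 6696, 6679 and 3724 in male WT and 7093, 11173 and 9501 in male AS. Its log2 difference was 0.72 ± 0.27 (SE) in males and -0.33 ± 0.21 in females. Esam, a junctional immunoglobulin protein, was 1112, 1576 and 1081 in male WT and 1836, 2924 and 1983 in male AS, with a log2 difference of 0.82 ± 0.22 (SE), against -0.09 ± 0.19 in females. The ranges of Cdh5 and Esam did not overlap in males. In females the values of Pecam1 were 12042 and 7621 in WT and 7681 to 8801 in AS, those of Cdh5 were 11211 and 7489 in WT and 6665 to 8377 in AS, and those of Esam were 2108 and 1382 in WT and 1504 to 1786 in AS. For these 3 genes female WT replicate 1 was the highest of the female libraries.

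The sialomucins had the largest positive differences among the members in males. Emcn, which covers the luminal surface of capillaries and veins, was 7284, 6903 and 3311 in male WT and 8955, 13333 and 11929 in male AS libraries. Cd34, a heavily glycosylated protein of endothelial and blood stem cells that selectins can bind in lymph nodes, was 2428, 3505 and 1775 in male WT and 3991, 6036 and 5789 in male AS. Neither overlapped, and the AS mean was 1.96 times the WT mean for Emcn and 2.05 times for Cd34, with log2 differences of 1.03 ± 0.31 and 1.06 ± 0.26 (SE). In females Emcn was 12357 and 7284 in WT and 9033, 8469 and 7924 in AS, with a log2 difference of -0.16 ± 0.23. Cd34 was 6570 and 4832 in female WT and 4646, 3650 and 4477 in female AS, with no overlap and a log2 difference of -0.41 ± 0.18 (SE).

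**Figure D2:**
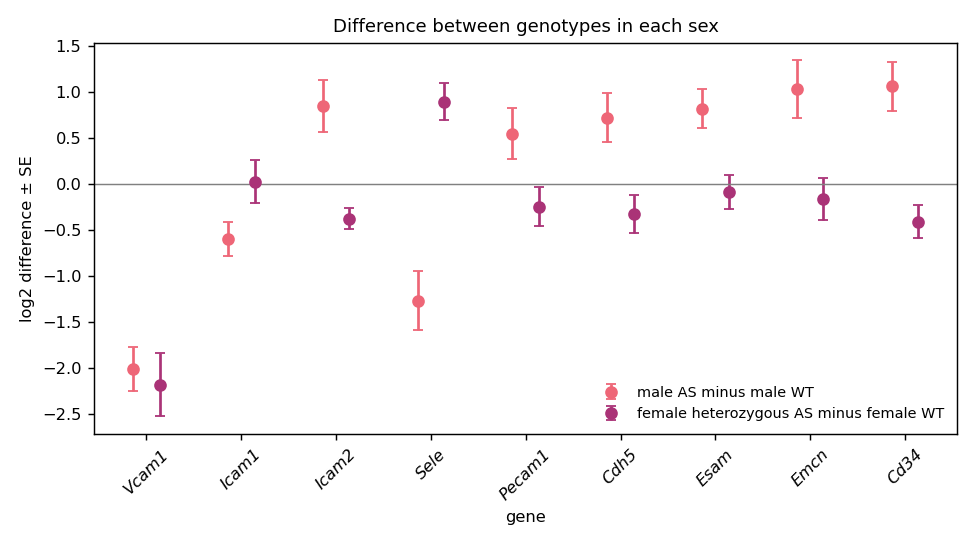
Log2 difference between AS and WT for the 9 genes that were fitted, in males and in heterozygous females, with bars of 1 SE. Vcam1 lies near -2 in both sexes (-2.02 and -2.18), and Sele lies at -1.27 in males and at 0.90 in females.

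Among the 9 members fitted, 6 had an adjusted p under 0.05 in males, namely Vcam1, Icam1 and Sele as lower and Esam, Emcn and Cd34 as higher. Over all genes 35.5% passed in males, 16.6% as higher and 18.9% as lower. With equal column totals the split of all genes was 5289 higher and 1418 lower in place of 2638 and 2998, and Icam1 no longer passed. Icam1 was also lost with quantile normalization, and with no filter on low values Icam1 and Emcn were lost. In heterozygous females 1 of 9 passed, Vcam1 as lower, where 1.41% of all genes passed, 1.06% as higher and 0.348% as lower. In the difference between the sexes 3 of 9 passed (Sele, Icam2 and Cd34), beside 23.2% of all genes. None of them passed without male WT replicate 3 or female WT replicate 1. Sele alone passed without male WT replicate 1, male AS replicate 3, female AS replicate 2 or female AS replicate 3. Icam2 was lost with no filter on low values and without male AS replicate 2 or female AS replicate 1. In males 8 of the 10 members had groups that did not overlap, and in females 4 did (Vcam1, Icam2 and Cd34 as lower, Sele as higher). Selp is counted among the 8 in males but was under the filter, so it is not among the genes tested. Over all genes tested 53.1% did not overlap in males and 40.4% in females. These are the contrasts on which the members were chosen, so the shares are given side by side and nothing is read from them. Without male WT replicate 1, male WT replicate 3 or male AS replicate 3, Vcam1 alone of the members passed in males. Icam1 was lost without male WT replicate 2 or male AS replicate 1 as well, and Esam, Emcn and Cd34 without male AS replicate 2. Without female AS replicate 1 or 2 no member passed in females (limma, Vcam1 differences -2.07 and -1.93), and without female WT replicate 1 Sele alone did. With no filter on low values no member passed in females either.

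Within a library, the value of a member can be set against the mean log2 value of the 16 endothelial reference genes. Both include the pseudocount (17.5 units in males and 17.8 in females), which weighs most on low members such as Sele. Vcam1 stood at -1.90 to -1.76 in male WT and at -4.81 to -4.55 in male AS libraries on this log2 scale, a mean difference of -2.84. In females it stood at -2.37 and -1.65 in WT and at -4.35 to -3.01 in AS libraries, a mean difference of -1.83. The groups of each sex did not overlap on this scale either. Icam1 stood at -2.08 to -1.21 in male WT and at -3.06 to -2.85 in male AS, and in females at -3.05 and -2.91 in WT and -2.76 to -2.37 in AS. In males the groups did not overlap (mean difference -1.42), and in females they did not overlap either, in the opposite direction (0.38). Female Icam1 overlapped before the reference was subtracted. The reference genes themselves had a median log2 difference of 0.81 in males and -0.40 in females. Before subtraction the male differences were -2.02 for Vcam1 and -0.60 for Icam1, so the male values on this scale include the rise of the reference. The share of all genes without overlap on this scale was not counted. Sele stood at -2.32, -4.23 and -2.46 in male WT and -5.20 to -4.94 in male AS, and at -6.16 and -6.28 in female WT and -5.10 to -4.83 in female AS. The members of the resting endothelium moved far less than Vcam1 and Sele on this scale. The mean difference in males was -0.28 for Pecam1, -0.10 for Cdh5, -0.0034 for Esam, 0.03 for Icam2, 0.21 for Emcn and 0.24 for Cd34, and in females these 6 lay between -0.06 (Cd34) and 0.26 (Esam).

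**Figure D3:**
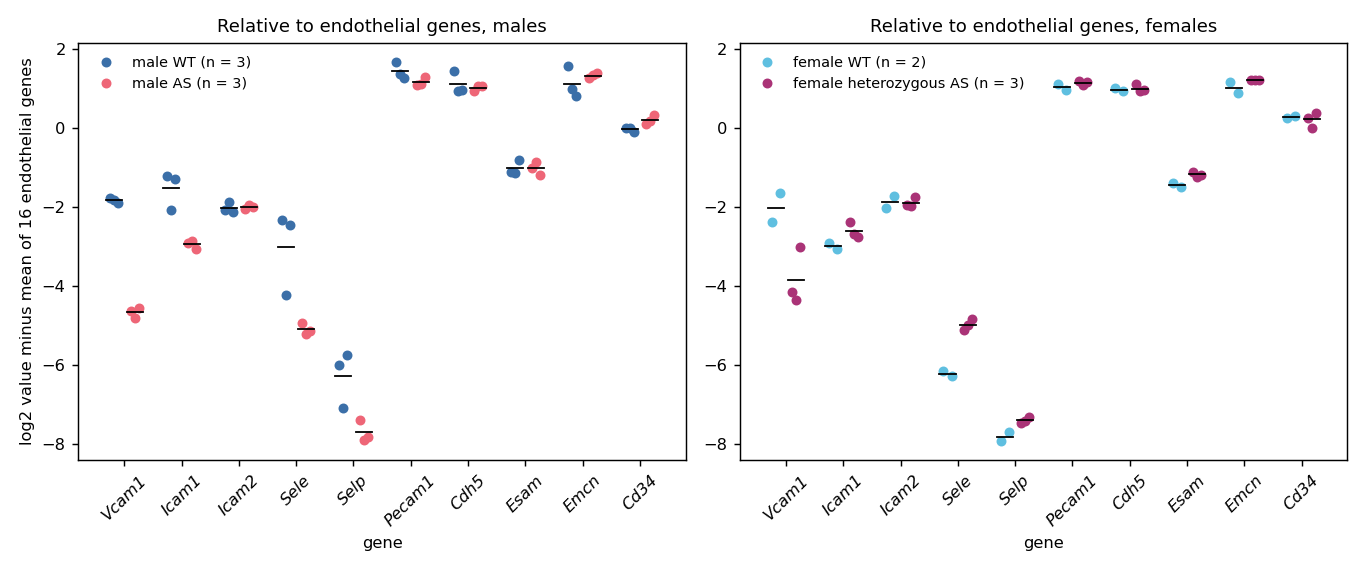
Log2 value of each gene minus the mean log2 value of the 16 endothelial reference genes in the same library, males left and females right, with 1 point per library and a line at the group mean. Vcam1 is at -4.81 to -4.55 in male AS and at -1.90 to -1.76 in male WT libraries, while Esam is near -1 in both groups.

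Expressed as a percentage of Pecam1 in the same library, Vcam1 was 8.99 to 10.9% in male WT and 1.49 to 1.70% in male AS libraries, and 8.74 and 16.2% in female WT and 2.09 to 5.31% in female AS libraries. Cdh5 was 74.3 to 85.3% of Pecam1 in male WT and 84.9 to 97.2% in male AS, ranges that overlap. Cd34 was 30.9 to 39.0% in male WT and 50.5 to 52.5% in male AS, and 54.6 and 63.4% in female WT and 47.1 to 58.3% in female AS. The ratio of Vcam1 to Icam1 was 0.68, 1.21 and 0.64 in male WT and 0.28, 0.24 and 0.33 in male AS, so it was lower in every male AS library than in any male WT library. In females this ratio was 1.47 and 2.69 in WT and 0.27, 0.29 and 0.83 in AS. The ratio of Icam1 to Icam2 was 1.83, 0.86 and 1.84 in male WT and 0.47 to 0.54 in male AS, against 0.54 and 0.39 in female WT and 0.49 to 0.74 in female AS. The ratio of Sele to Selp was 18.1 to 29.0 in 9 of the 11 libraries. It was 42.7 in male AS replicate 3 and 11.8 in female WT replicate 1. Selp rested on few reads inside that range as well, at a value of 1.13 in female WT replicate 2, where the ratio was 29.0. Nothing is therefore read from this ratio. Sele and Selp lie 57586 bases apart on chromosome 1.

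**Figure D4:**
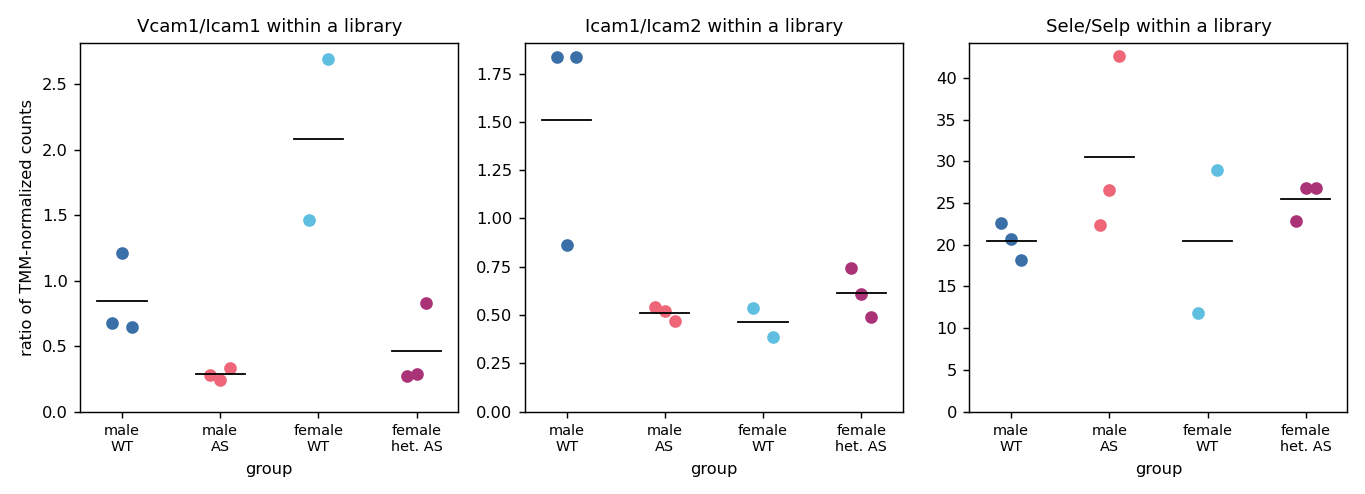
Ratios of the TMM-normalized counts of Vcam1 to Icam1, Icam1 to Icam2 and Sele to Selp within each library, with 1 point per library and a line at the group mean. The Vcam1 to Icam1 ratio is at most 0.33 in male AS and at least 0.64 in male WT libraries.

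Levels of different genes were set side by side per kilobase of exon. Cdh5 was the highest member in each of the 11 libraries, at 886 to 1593 per kb in male WT and 1688 to 2658 in male AS. Emcn and Pecam1 followed, and the ranges of all 3 overlapped in male WT. Esam, Cd34 and Icam2 formed a middle tier, with group means of 336 to 438 per kb in male WT and 590 to 784 in male AS, and neighbours in that order overlapped in male WT. Icam1 was next, at 200 ± 34.6 (SD, n = 3) in male WT and 132 ± 28.7 in male AS. Below it, Sele and Vcam1 overlapped in male WT (111 ± 52.4 and 81.7 ± 27.3 per kb) and were apart in male AS (39.1 ± 3.91 and 18.1 ± 2.64). In female WT Vcam1 was level with Icam1 (129 ± 14.4 and 135 ± 42.2 per kb, n = 2) and far above Sele (15.8 ± 6.47), and in female AS Vcam1 and Sele overlapped (28.9 ± 14.9 and 33.8 ± 1.47, n = 3). Selp was the lowest member in every library.

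**Figure D5:**
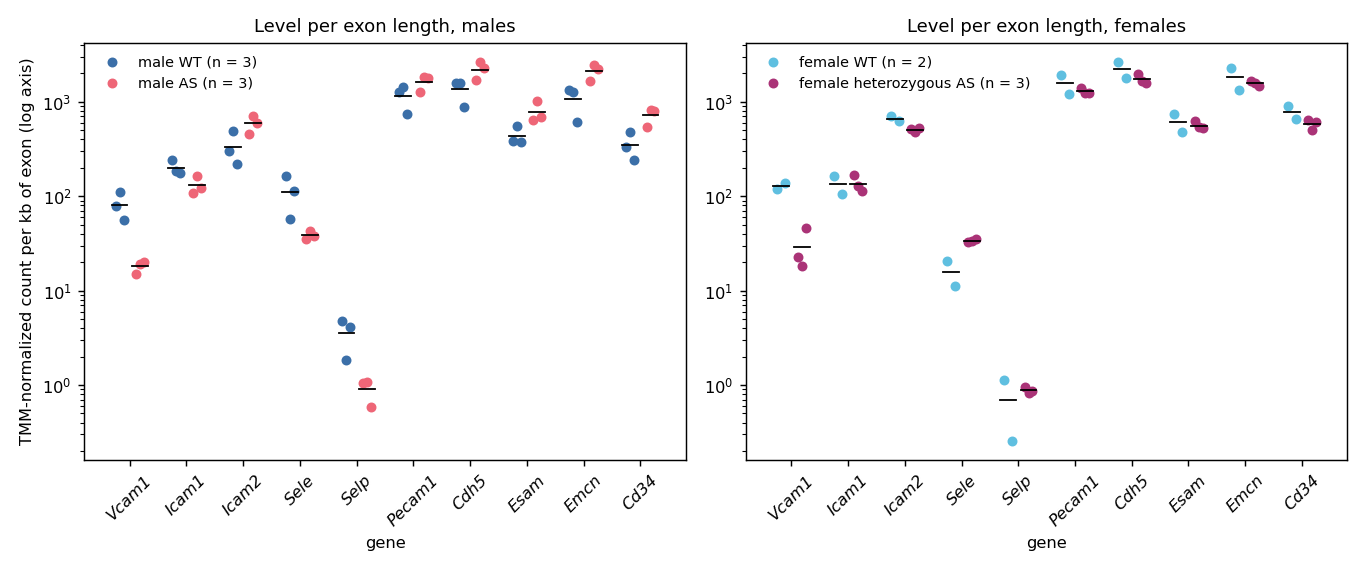
TMM-normalized count per kb of exon (log axis) of each gene in each library, males left and females right, with 1 point per library and a line at the group mean. Cdh5 is the highest and Selp the lowest gene in every library, and Vcam1 is level with Icam1 in female WT but below it in the other groups' means.

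Markers of other cell types moved with some members in males. Their counts stand beside 16.6% of all genes as higher and 18.9% as lower in males, and 1.41% past the test in females. Of 6 parietal epithelial markers, 5 were lower in male AS (Krt18, log2 difference -2.15, adjusted p = 0.0117, and Krt8, -1.82, adjusted p = 0.00933, from limma), and their sum was 1748 to 2866 in male WT and 653 to 1304 in male AS. In females none of the 6 passed in limma, and their sum was 1098 to 1909 in WT and 1587 to 1874 in AS, where the Vcam1 difference was -2.18. Of 5 injured tubule markers tested, 3 were lower and 1 higher in male AS. Their summed level, over 6 measured of which Krt20 was at 0 in 1 library of each male group, was 21502 to 35225 in male WT and 8672 to 19861 in male AS. In females it was 17563 to 28582 in WT and 26397 to 33753 in AS, with none of 4 past the test in limma (Krt20 was at 0 in 1 WT and Havcr1 in 1 AS library). Mesangial and pericyte markers summed to 11898 to 19662 in male WT and 17106 to 24076 in male AS, with 1 of 6 higher and 1 lower, and Tbx18 at 0 in 2 male WT libraries. The part of these cells in the Vcam1 difference was not tested. Platelet markers summed to 281 to 363 in male WT and 155 to 231 in male AS, and to 227 to 320 in female WT and 132 to 150 in female AS. Of them Ppbp, a platelet chemokine, was lower in both sexes (log2 differences -0.9997, adjusted p = 0.00736, and -1.38, adjusted p = 0.0369, from limma), although its female call held in 1 of the 5 fits that left out a library, and none of the 7 was at 0 in any library. Their part in Selp and Pecam1 was not tested. Among genes that overlap members on the other strand, 3 had low values. Gm16897, opposite Cd34, was 2.32 to 18.3, Gm47079, opposite Icam1, was at most 2.02, and Gm16548, opposite Selp, was at most 4.73. Gm43109 (opposite Vcam1), Gm29682 (opposite Cdh5) and Gm16587 (opposite Selp) were searched by symbol and not found in the male or female tables. Whether the counting used strand is not given in the sources used here.

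The leukocyte partners of these molecules were followed as a list of 12 counter-receptors. In males 4 rose and none fell (median log2 difference 0.44, against 0.0023 over all genes). The counts of this and the following lists stand beside the 16.6% of all genes that passed as higher and the 18.9% as lower in males. Itga4, the alpha chain of VLA-4, the receptor of Vcam1, rose by a log2 difference of 0.92 ± 0.28 (SE, adjusted p = 0.0354), and Itgb1, the beta chain it shares with many matrix receptors, by 0.83 ± 0.20 (adjusted p = 0.0180, both limma). Itga9 rose by 0.65 and Itgax by 0.44. Each of these 4 calls was lost without male WT replicate 1 or 3 or without male AS replicate 2 or 3. In females none of the 12 passed in limma (p was under 0.05 before adjustment for 1), with a median of 0.16. Itgb1 is not a leukocyte gene alone, since most adherent cells express it.

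Of 15 other junction genes, 3 rose and 4 fell in males, with a median log2 difference of 0.16. The 4 that fell, Ocln (-1.30, adjusted p = 0.0322), Cgn (-1.11, adjusted p = 0.0384), Cdh2 (-0.95, adjusted p = 0.0104) and Jam2 (-0.63, adjusted p = 0.0227, all limma), include Ocln and Cgn of tight junctions, which epithelia also use, and Cdh2, the N-cadherin. Cdh2 alone of these passed whichever male library was left out. None of the 15 passed in females in limma (p was under 0.05 before adjustment for 6), where the median was -0.22. Of 16 further adhesion and surface genes tested, 6 rose and 3 fell in males (median 0.54), among them Bcam, a laminin receptor (1.28 ± 0.23, adjusted p = 0.00811), and Alcam, a ligand of CD6 (0.84 ± 0.11, adjusted p = 0.00505, both limma), which passed whichever library was left out. Mcam (0.79) and Thbd, thrombomodulin (0.76), rose as well and lost their calls without male WT replicate 1 or 3 or male AS replicate 2. In females 1 of the 16 passed, Vwf, the von Willebrand factor, as lower (-1.004 ± 0.15, adjusted p = 0.0388, limma). Its female values were 117 ± 2.50 in WT (n = 2) and 49.6 ± 4.63 in AS (n = 3). The call was lost without female AS replicate 1, 2 or 3. In males Vwf was lower in AS as well, at 82.0 to 95.7 in WT and 39.5 to 56.5 in AS libraries, without overlap.

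Genes of inflammatory activation, many of them of the NF-kB pathway that is known to induce Vcam1, Icam1 and Sele in endothelial cells, were followed as well. Of 16 tested, 7 rose, none fell and 9 did not pass in male AS (median log2 difference 0.50), beside 16.6% of all genes as higher. Il1b and Tnf, cytokines that activate endothelial cells, were below WT in all male AS libraries and are given because of these values. Il1b was 301 to 403 in male WT and 69.6 to 275 in male AS and did not pass in limma, and Tnf was 4.85 to 8.61 in male WT and 0 to 1.55 in male AS, under the filter. Relb rose by 1.40 ± 0.21 (adjusted p = 0.00576), Tnfaip3, an inhibitor of the pathway, by 1.06 ± 0.18 (adjusted p = 0.00716), Rel by 1.03 ± 0.15 (adjusted p = 0.00566) and Nfkbia, the inhibitor IkB-alpha, by 0.88 ± 0.17 (adjusted p = 0.00953, all limma). These 4 passed whichever male library was left out. In females none of 16 passed in limma (p was under 0.05 before adjustment for 5). There Tnfaip3 had a log2 difference of 0.89 ± 0.32 (adjusted p = 0.178) and Cxcl1, a neutrophil chemokine, one of 2.09 ± 0.67 (adjusted p = 0.144). Tnf had the opposite direction to males, at 4.52 and 8.05 in female WT and 13.5 to 27.5 in female AS libraries. Il1b overlapped in females, at 85.9 and 148 in WT and 94.6 to 300 in AS libraries. Of 14 endothelial transcription factors, 6 rose and none fell in male AS (median 0.72). Klf2, a factor induced by shear stress, rose by 1.43 ± 0.30 (adjusted p = 0.0120), Fli1, an ETS factor, by 1.23 ± 0.25 (adjusted p = 0.0105), Hhex by 0.96 and Mef2c by 0.93 (all limma). Fli1 passed whichever male library was left out. Klf2 did not without male WT replicate 1, and Hhex and Mef2c did not without that library or male AS replicate 2 or 3. In females none of the 14 passed in limma (p was under 0.05 before adjustment for 3), and the median was -0.19. The median of the 16 endothelial reference genes was 0.81 in males and -0.40 in females.

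The genes whose levels ran most like Vcam1 over the 11 libraries, after centring within each sex, were Mcm7, Cdc42, Gm5171, Rps7 and Ssbp3. Pearson's r was 0.978, 0.973, 0.966, 0.963 and 0.963 among 11521 genes, and the points share the genotype difference between groups. Their own differences were much smaller than that of Vcam1. Mcm7, a subunit of the replicative helicase, was 216 to 239 in male WT and 175 to 187 in male AS, and 264 and 271 in female WT and 218 to 244 in female AS. Cdc42, a small GTPase of the actin cytoskeleton, was 6781 to 7498 in male WT and 5444 to 6002 in male AS, and 8225 and 8734 in female WT and 5894 to 6589 in female AS. The 5 genes had log2 differences of -0.55 to -0.27 in the male comparison and of -0.56 to -0.21 in the female one. By coordinates Mcm7 (chromosome 5 of GRCm38, 138164583 to 138172422) contains Mir93 on the same strand, the gene of the microRNA that the study follows. A value for Mcm7 in polyA RNA is not a measure of that microRNA. Gm5171 is annotated as a processed pseudogene, a copy without introns whose reads may come from another gene. By Spearman's rho Mcm7 also ranked first (0.964), level with Tmem237 and Snrpc, which were looked at after their values were seen. Cdc42 ranked 5 by rho, Ssbp3 8, Rps7 14 and Gm5171 22, so the list depends on the measure.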

How the data were processed

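The authors extracted RNA from isolated glomeruli, prepared stranded polyA libraries and, per the labels, used FastQC, cutadapt, STAR (mm10) and Partek, with versions not given in the sources used here. The deposited signal values are counts per gene scaled by TMM, in 1 table per sample. Of low values, 76.8% to 81.1% were whole multiples of the most frequent one (tolerance 0.02), so whole reads were not recovered and no count test was run. The precision comes from the spread between libraries. Symbols turned into dates (22 in male and 23 in female tables) were left out of the named genes.

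Genes reaching 0.5 CPM in 3 or more libraries of a sex were fitted with limma 3.58.1 (R 4.3.3, mean-variance trend, two-sided) on log2 of the value plus 1 CPM (17.5 in males, 17.8 in females), for male AS against WT (15863 genes), female AS against WT (15785) and the difference between both (15473). The repeated library was left out. P was adjusted by Benjamini-Hochberg at 0.05. P-values set the difference between groups against the spread between libraries within groups, moderated across all genes. In females that difference also holds the sequencing run. Fold changes on this scale understate the change of low genes. The fits were tested on simulated data. Members and lists were chosen with earlier results of these data known. Named were all members, Col4a5, up to 4 genes past the test of each of 5 pathway lists by size of difference (2 of a list with none), up to 2 of each marker list beside a result, and the 5 genes most like Vcam1 by Pearson's r with a mean of at least 5 CPM. Some of these stand only as counts. Python 3.11.15, pandas 2.3.3 and matplotlib 3.10.9 were used for tables and figures. Coordinates and exon lengths are from GENCODE M21 on GRCm38, the same build as mm10. Alternatives were other pseudocounts, filters and scalings, a replicate term, the repeated library kept, both sexes in one fit, the study's thresholds and leaving out each library.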

Additional observations from a re-analysis of the deposited data

Results flagged for a closer look

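Sele was lower in every male AS library and higher in every female AS library than in the controls of its sex, with log2 differences of -1.27 and 0.90, which are -2.17 apart. Cd34 was higher in every male AS library and lower in every female AS library, with log2 differences of 1.06 and -0.41, which are 1.47 apart. Both are members chosen on these contrasts, so these differences are a description, and their place among genes past the test supports nothing. Genotype and sequencing run coincide in females.

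Genes of the other lists whose AS difference was not the same in males and females by limma's test of the difference itself had the following log2 values, male minus female, with adjusted p between 0.0216 and 0.0424. Up to 4 genes of a list are given, by size of difference. Those past this test in all were 2 of 12 counter-receptors, 7 of 15 junction genes and 6 of 16 further adhesion genes tested. So were 3 of 15 genes of inflammatory activation and 6 of 14 transcription factors, beside 23.2% of all genes. Among counter-receptors these were Itgb1 (1.05) and Itgax (0.99). Among junction genes they were Cgn (-1.95), Ocln (-1.78), Cldn5 (1.20) and Jam3 (0.90). Among further adhesion genes they were Bcam (1.42), Clec14a (1.34), Thbd (1.33) and Stab1 (1.22). Among genes of inflammatory activation they were Nfkbia (1.05), Relb (1.00) and Nfkb1 (0.74), and among transcription factors Mef2c (1.36), Fli1 (1.35), Klf2 (1.22) and Ets2 (1.07). Without female WT replicate 1 none of all genes passed this test in limma (p was under 0.05 before adjustment for 3634), and each of these calls was also lost without male WT replicate 3 or female AS replicate 3.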

How the results depend on the processing

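Of the members past the threshold, none changed direction under any alternative run except Esam in males, at -0.0034 relative to the endothelial reference genes, a setting that subtracts their mean. Of 288 alternative values of all members' differences, 246 moved by less than 1 residual SD. The number of genes past the test in males (5636) was within 1.5 times under all settings other than leaving out a library, which gave 2485 to 5873. In females (222) it was 8 with no filter, 146 with a filter at 2 CPM, 676 with equal column totals, 134 with quantile normalization, 2523 with the repeated library kept as deposited and 1361 with an unadjusted p and a fold of 1.5, and leaving out a library gave 4 to 1803. For the difference between the sexes (3593) it was 2016 with no filter and 5714 with the repeated library kept, and leaving out a library gave 0 (without female WT replicate 1) to 4835. The cause was not tested. With a replicate block the counts were 6407 in males, 881 in females and 3438 for the difference. Replicate numbers did not pair the samples (correlations of deviations 0.049, 0.523 and 0.057 in males, 0.257 and -0.047 in females), so the block gives a count and no more. With 2 or 3 libraries a group and Selp at a few reads, small differences were not detectable.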
